A study of Mus musculus with 18 samples.

Results

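H3K27me3 was described at 7 genes that encode transcription factors of postmitotic neurons born in the medial ganglionic eminence (MGE): Sox6, Satb1, Maf, Zeb2, Mef2c, Npas1 and St18. The genes were chosen by name, out of 20661 autosomal protein-coding genes, and every interval of the mark that overlapped a gene body or its flanks of 2.5 kb was taken as belonging to the gene. Of the 7 genes, 4 (Sox6, Satb1, Maf and Npas1) had an interval in all 12 libraries, Zeb2 had one in 6 libraries, and Mef2c and St18 had none in any library. Among all 20661 genes, 12.1% had an interval in every library, 26.7% in some and 61.2% in none.

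The MGE is a germinal zone of the ventral embryonic forebrain, and most of its neurons become cortical and striatal interneurons or pallidal neurons. Its progenitors express Nkx2-1, which switches on Lhx6 as cells leave the cycle, and the factors described here act after that step. H3K27me3 is the trimethylated lysine of histone H3 that Polycomb repressive complex 2 places, with Ezh2 as a catalytic subunit. The mark lies in broad domains over repressed developmental genes, often at starts rich in CG dinucleotides.

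The mark was profiled by bulk CUT&Tag, in which an antibody directs a transposase to tag nearby DNA, in 3 WT and 3 Ezh2 KO libraries at each of E12.5 and E15.5. The 6 heterozygous libraries were not analysed here. The parents were Nkx2.1-CreC/C;Ezh2F/+ males and Ai9F/F;Ezh2F/+ females, so that by this cross WT and KO embryos both carry the Cre and the Ai9 reporter (Tom), and the KO is given as Nkx2.1-CreC/+;Ezh2;Ai9F/+. Deletion is limited to cells of the Nkx2.1-Cre lineage, and tissue of several embryos of 1 genotype could be pooled in a library. At E12.5 the whole MGE was taken, whereas at E15.5 only its Tom+ part was dissected, so stage and dissection cannot be told apart. In bulk nuclei, fewer cells with the mark and less mark per cell cannot be told apart either.

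The libraries differed in depth and in their chromosome X signal. Depth, taken as the mean count per 200 bp window, was 0.117 to 0.698 in E12.5 WT, 0.212 to 0.272 in E12.5 KO, 0.0751 to 0.150 in E15.5 WT and 0.179 to 0.346 in E15.5 KO, so every E15.5 KO library was deeper than every E15.5 WT library. Total counts in intervals ran from 573838 to 6846250 and the lists from 5008 to 13289 intervals. Chromosome X held 18.1% to 24.5% of the covered bases in the E12.5 KO libraries and in 1 E12.5 WT library (replicate 3, 20.9%), and at most 5.33% in the other 8. Embryo sex is not given in the labels. At E12.5 the high X share went with the KO in all libraries but WT replicate 3, so it could not be fully told apart from genotype. All 7 genes are autosomal, and the part of the X signal in their values was not tested. Ezh2 itself had no interval in any library, which says nothing about its deletion. No interval was listed at any of 7 autosomal housekeeping genes.

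At Npas1, Sox6, Satb1 and Zeb2 the widest interval of each library that listed the gene lay at the start side, with a few smaller ones deeper inside Npas1 and Sox6. Annotated start sites were taken from a set of RefSeq promoters (GRCm38.p6). The set used held 19 starts for 5 of the 7 genes and had no entry for Maf or St18. Each start was taken with 250 bases before it and 50 after it. Below, a start counts as covered in a library when it lies inside an interval. CG dinucleotides, searched as the letters CG, which read the same on both strands, are in capitals. Their number was the feature chosen for display, and over all genes it went with coverage only at low numbers. Starts covered in all libraries made up 1.08% of those with 0 to 4 CG, 4.6% with 5 to 9 and 11.5% with 10 to 14. In bins above that the share was 8.62% to 12.2%, with no further rise. The share of G and C bases also went with coverage. Its median was 62.3% in starts covered in all libraries and 50.3% in starts covered in none. The sequences shown are starts of Npas1, Sox6 and Satb1 covered in 9 or more libraries (for Satb1 the one richest in CG), a Zeb2 start covered only in some, and starts of Mef2c that were covered in none.

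Npas1 encodes a bHLH-PAS repressor found in subsets of MGE and other forebrain neurons. Its only start in the set used (chr7:16476731-16477030, minus strand) was covered in all 12 libraries and held 20 CG.
Npas1 start 1: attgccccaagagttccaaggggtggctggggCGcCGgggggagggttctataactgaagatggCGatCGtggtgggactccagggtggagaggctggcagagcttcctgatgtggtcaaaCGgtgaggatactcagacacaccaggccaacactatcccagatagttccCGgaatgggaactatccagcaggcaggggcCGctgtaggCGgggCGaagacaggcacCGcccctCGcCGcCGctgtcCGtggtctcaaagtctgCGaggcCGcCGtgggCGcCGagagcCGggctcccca
Sox6 encodes an SRY-box factor that acts downstream of Lhx6 in the positioning and maturation of MGE interneurons. Its first start (chr7:116038695-116038994, minus strand), with 11 CG, was covered in all 12 libraries.
Sox6 start 1: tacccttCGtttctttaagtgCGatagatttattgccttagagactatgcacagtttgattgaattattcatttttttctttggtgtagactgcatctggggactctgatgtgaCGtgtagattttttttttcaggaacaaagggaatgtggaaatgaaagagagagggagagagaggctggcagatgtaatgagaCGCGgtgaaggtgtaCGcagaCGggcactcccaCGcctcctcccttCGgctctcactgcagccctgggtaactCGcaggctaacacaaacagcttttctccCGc
The next Sox6 start (chr7:116030998-116031297, minus strand) lies 7.70 kb downstream, held 13 CG and was covered in 10 libraries. The exceptions were E12.5 KO replicates 1 and 2.
Sox6 start 2: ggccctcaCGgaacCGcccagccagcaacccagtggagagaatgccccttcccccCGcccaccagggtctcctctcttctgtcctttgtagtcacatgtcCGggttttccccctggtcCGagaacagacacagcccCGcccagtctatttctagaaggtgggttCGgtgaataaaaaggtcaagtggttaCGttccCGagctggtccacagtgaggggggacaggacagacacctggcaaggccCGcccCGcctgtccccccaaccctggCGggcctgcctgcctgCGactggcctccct
Satb1 encodes a chromatin organiser that promotes the maturation of somatostatin interneurons. Its start with the most CG (chr17:51832598-51832897, minus strand, 45 CG) was covered in 9 libraries.
Satb1 start 2: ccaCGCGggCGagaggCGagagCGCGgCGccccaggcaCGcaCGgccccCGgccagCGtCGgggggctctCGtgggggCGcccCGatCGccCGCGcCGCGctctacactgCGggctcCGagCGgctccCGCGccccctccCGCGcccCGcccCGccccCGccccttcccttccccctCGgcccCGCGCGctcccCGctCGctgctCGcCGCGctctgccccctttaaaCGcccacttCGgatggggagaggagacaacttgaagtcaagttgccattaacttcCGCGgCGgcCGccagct
Zeb2 encodes a zinc finger repressor that directs MGE cells towards a cortical interneuron rather than a striatal fate. The most downstream of its 4 starts (chr2:45110228-45110527, minus strand, 19 CG) was covered in 3 libraries, which were 2 of E12.5 WT and 1 of E15.5 WT.
Zeb2 start 4: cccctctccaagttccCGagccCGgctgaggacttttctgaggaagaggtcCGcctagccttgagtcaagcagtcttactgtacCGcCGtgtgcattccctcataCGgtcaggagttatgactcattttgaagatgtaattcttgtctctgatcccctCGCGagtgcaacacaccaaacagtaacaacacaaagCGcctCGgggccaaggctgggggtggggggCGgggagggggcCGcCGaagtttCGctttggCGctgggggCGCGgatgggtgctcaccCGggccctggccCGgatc
Mef2c encodes a MADS-box factor needed for the development of parvalbumin interneurons. Its first start (chr13:83503784-83504083, plus strand) held 1 CG, and its second (chr13:83523406-83523705, plus strand) held 10.
Mef2c start 1: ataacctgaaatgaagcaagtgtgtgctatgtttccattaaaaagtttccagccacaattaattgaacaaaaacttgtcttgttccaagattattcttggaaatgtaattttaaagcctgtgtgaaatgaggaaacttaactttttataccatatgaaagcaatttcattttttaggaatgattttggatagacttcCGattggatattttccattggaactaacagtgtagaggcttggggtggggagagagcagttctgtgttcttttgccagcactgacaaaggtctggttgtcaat
Mef2c start 2: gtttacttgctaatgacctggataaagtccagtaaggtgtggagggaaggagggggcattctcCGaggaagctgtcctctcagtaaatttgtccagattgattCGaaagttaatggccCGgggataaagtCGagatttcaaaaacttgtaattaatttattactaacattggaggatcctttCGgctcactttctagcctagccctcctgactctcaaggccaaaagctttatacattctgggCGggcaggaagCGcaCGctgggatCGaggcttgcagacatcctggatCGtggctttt

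Over 31396 autosomal starts, 44% held 10 or more CG. Of those, 11% were covered in all 12 libraries and 59.6% in none, against 2.24% and 89.7% of the starts with under 10 CG. Among the 19 starts of the 5 genes, 7 held 10 or more CG, of which 2 were covered in every library, 3 in some and 2 in none. None of the other 12 was covered in every library, and 9 of them were covered in none. The 2 uncovered starts with 10 or more CG were the second of Mef2c and the fourth of Satb1 (chr17:51812135-51812434, minus strand, 13 CG), which lies 21.1 kb inside the gene. CG content therefore did not sort the starts of these genes by itself, and a start of Satb1 with 8 CG was covered in 10 libraries.

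**Figure D1:**
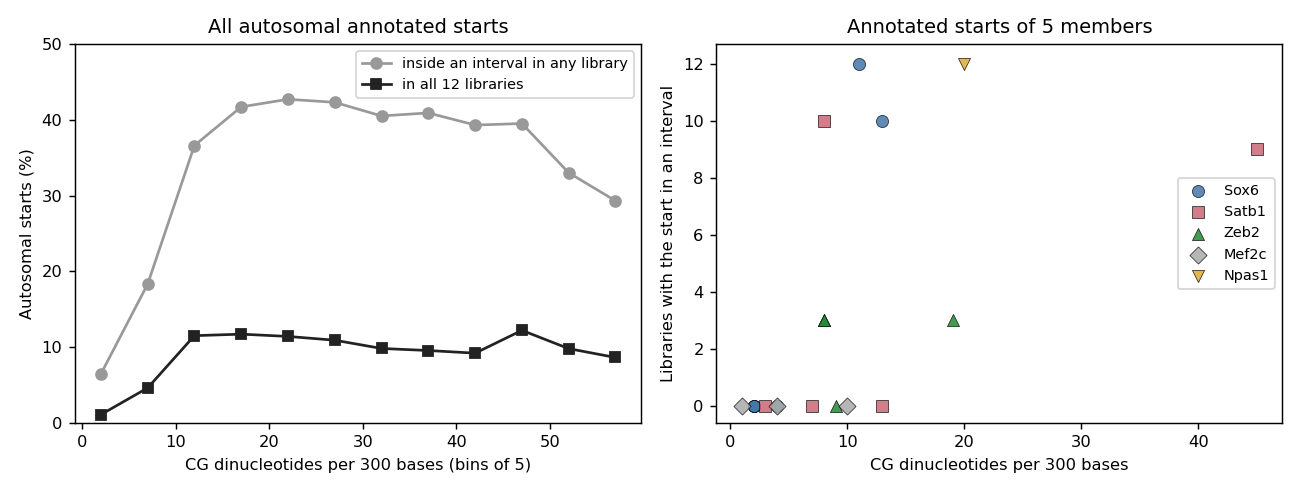
CG content and coverage of annotated starts. The left panel plots the share of all autosomal starts (%) inside an interval in any library (circles) and in all 12 libraries (squares) against CG dinucleotides per 300 bases, and the right panel plots, for each of the 19 starts of 5 genes, the number of libraries with the start in an interval. The Npas1 start and the first Sox6 start reach 12 libraries, and the 3 Mef2c starts sit at 0.

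The genes also differed in how much of them was covered. Npas1 (chr7:16455721-16476822) had a median of 35.9% of its window covered over the 12 libraries and Maf (chr8:115703253-115706894) 46.3%, against a median of 24.1% over the 2491 genes listed in every library. The long genes Sox6 (chr7:115470872-116040776) and Satb1 (chr17:51736187-51833290) were covered over 1.88% and 3.53% of their windows. Signal per length, given as the count per covered 200 bp over the mean window of the library, had medians of 39.1-fold at Npas1, 19.97-fold at Sox6, 16.2-fold at Satb1 and 8.39-fold at Maf. The median gene stood at 21.0-fold, and Maf was at percentile 5.90 of the 2491 genes and Npas1 at percentile 70.7. These ratios were 19.96 to 50.3-fold at Npas1, 12.6 to 33.9-fold at Sox6, 9.65 to 33.6-fold at Satb1 and 5.03 to 16.8-fold at Maf over the libraries. Neighbours in that order overlapped, and Npas1 lay above Maf in every library. The 33.6-fold value of Satb1 came from an interval of 1 kb.

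**Figure D2:**
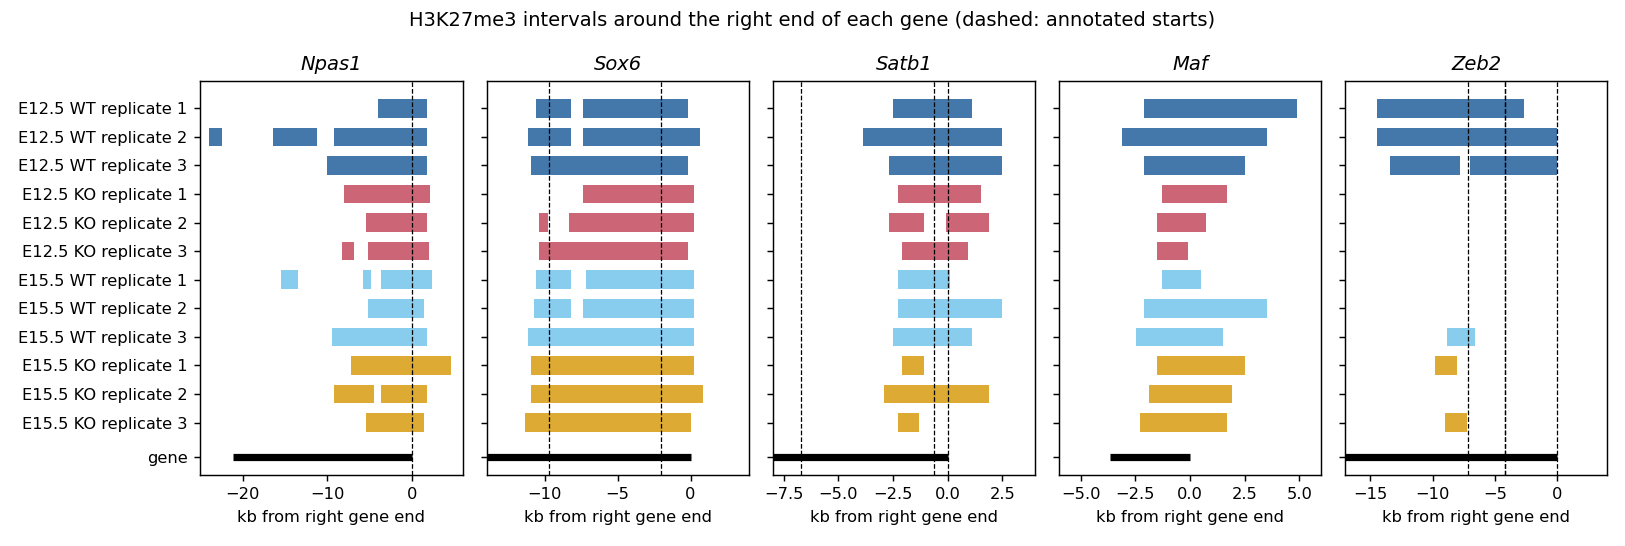
Intervals of H3K27me3 near the end of each gene with the higher coordinate, by library. The x axis gives the distance from that end in kb, negative towards the gene, coloured bars are intervals, the black bar is the gene and dashed lines are annotated starts. No start was available for Maf. Npas1, Sox6, Satb1 and Maf have an interval in all 12 libraries, and Zeb2 in none of the E12.5 KO libraries.

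Maf was the 1 gene called between genotypes at E12.5, among the 4 that could be tested, and its counts fell in the KO. Maf encodes a basic leucine zipper factor that shapes the fate and maturation of MGE interneurons. Normalised counts, which are counts brought to a common depth, were 68.7, 62.1 and 50.8 in E12.5 WT replicates 1, 2 and 3 and 19.6, 16.2 and 18.2 in the KO. All KO libraries lay below all WT libraries, as was so for 33% of the 3139 genes tested at this stage. The means were 60.5 ± 9.04 (SD, n = 3) and 18.0 ± 1.69 (SD, n = 3). Raw counts of Maf were 31, 167 and 94 in E12.5 WT and only 16, 17 and 17 in E12.5 KO. The log2 change was -1.74 (SE 0.36, edgeR quasi-likelihood test, adjusted p = 0.0136), and 4.05% of genes were called lower and 0% higher. The median gene moved by -0.57 on this scale. With TMM factors, which bring that median to -0.05, the change of Maf was -1.18 (edgeR adjusted p = 0.136) and missed the threshold. It also missed it, at -1.80, when E12.5 KO replicate 1 was left out (edgeR adjusted p = 0.159). Depth differed between the E12.5 libraries, and its part in the change of Maf was not tested.

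The Maf interval was also narrower in the E12.5 KO. It held 7, 6.6 and 4.6 kb in WT replicates 1, 2 and 3 and 3, 2.2 and 1.4 kb in the KO. All of these intervals overlapped the part of the gene with the higher coordinates, and all but that of KO replicate 3 ran past the gene end there. The WT intervals reached further beyond that end than the KO intervals. The share of the window covered was 53.2%, 64.7% and 53.2% in WT and 34.7%, 25.5% and 16.2% in KO, with no overlap, which 8.99% of 7193 genes also showed in this direction. The difference was -31.6 percentage points (exact two-sided permutation test, p = 0.1, the smallest p that 20 assignments allow). The count is taken over the listed interval, so a narrower interval and a lower count are not separate evidence. Counts per covered length overlapped, at 7.25 to 8.50-fold in WT and 5.03 to 9.98-fold in KO.

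At E15.5 no such difference was seen at Maf. Normalised counts were 31.1, 60.3 and 64.1 in WT and 87.3, 43.4 and 36.9 in KO, and the groups overlapped. The raw counts behind them were small, 9, 30 and 37 in WT and 60, 36 and 49 in KO. The log2 change was 0.03 (SE 0.42, edgeR adjusted p = 0.984), an estimate too imprecise to show that the genotypes were alike. Covered shares were 20.8%, 53.2% and 46.3% in WT and 46.2%, 44.0% and 46.3% in KO. The genotype effect differed between the stages by 1.77 on the log2 scale (SE 0.51), which did not pass the test (edgeR adjusted p = 0.106), and in covered share by 37.0 percentage points (exact permutation test within stages, p = 0.05, adjusted p = 0.722 over 8010 genes). Of the 2491 genes in the test of the stage difference in counts, 0.562% were called higher and 0% lower, with a median of 0.61 over all genes.

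Within the KO, counts at Maf were higher at E15.5 than at E12.5 by 1.61 on the log2 scale (SE 0.44, edgeR adjusted p = 0.0123). Every E15.5 KO library lay above every E12.5 KO library, as for 11.4% of 3002 genes, and 4.13% of those genes were called higher and 5.5% lower. TMM factors gave 1.58 (edgeR adjusted p = 0.0292). Leaving out E12.5 KO replicate 1, E12.5 KO replicate 3 or E15.5 KO replicate 1 ended the call, with values of 1.67 (edgeR adjusted p = 0.0945), 1.61 (edgeR adjusted p = 0.0636) and 1.15 (edgeR adjusted p = 0.155). In WT the stage change of Maf was -0.16 (SE 0.30, edgeR adjusted p = 0.685) by depth and 0.34 by TMM factors. Both stage comparisons share their libraries with the genotype comparisons, so these values are not independent of those above.

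Zeb2 (chr2:44983512-45117442) had a broad domain in every E12.5 WT library and none in the E12.5 KO lists. In E12.5 WT replicates 1 and 2 it had 1 interval of 11.8 and 14.4 kb, and in replicate 3 it had 2 intervals of 5.6 and 7 kb. These lay within the first 14.4 kb of the gene from its start side. Counts were 31, 240 and 154, or 68.7, 89.3 and 83.3 after scaling (80.4 ± 10.6, SD, n = 3). No E12.5 KO library listed an interval. Only 0.598% of 7193 genes, 43 in number, were listed in every WT and no KO library at E12.5, and 0 genes showed the reverse.

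The absence from a list is not a count of 0, because weaker signal is left out by the interval caller. The E12.5 KO lists did hold other intervals of 1.8 to 14.4 kb, the range of widths at Zeb2, with as few as 11, 8 and 7 counts in replicates 1, 2 and 3, which is 13.5, 7.63 and 7.48 after scaling. Those are the weakest of all such intervals, and how weak a domain as wide as that of Zeb2 could be and still be listed was not tested. The shallowest E12.5 library, WT replicate 1 (depth 0.117), listed the domain. WT replicates 2 and 3 (0.698 and 0.481) were deeper than every E12.5 KO library (0.212 to 0.272). The part of depth in the absence of Zeb2 from the KO lists was not tested. No fold or count test is given because the KO level is not known. The covered share was 8.49%, 10.4% and 9.07% in WT and 0 in each KO library, a difference of -9.31 percentage points (exact two-sided permutation test, p = 0.1, the smallest possible).

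At E15.5 the Zeb2 domain was small or unlisted in both genotypes. It was listed in WT replicate 3, at 12 counts (20.8 scaled) over 2.2 kb, and in KO replicates 1 and 3, at 14 and 26 counts (20.4 and 19.6 scaled) over 1.8 kb each. The other 3 libraries listed none. No gene of the group was gained or lost as a whole at E15.5, where 1.33% of 6444 genes were listed in every KO and no WT library and 0.0466% the reverse. All 3 intervals lay within the region that E12.5 WT libraries covered, and all 3 were far shorter than any whole domain of E12.5 WT. The first annotated start of Zeb2 was covered in none of the 12 libraries, and the next 2 starts, whose sequences overlap, were covered in the 3 E12.5 WT libraries only. The genotype difference in covered share at E15.5 was 0.34 percentage points (exact permutation test, p = 1) and its difference from E12.5 was 9.65 percentage points (exact permutation test within stages, p = 0.05, adjusted p = 0.722 over 8010 genes).

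**Figure D3:**
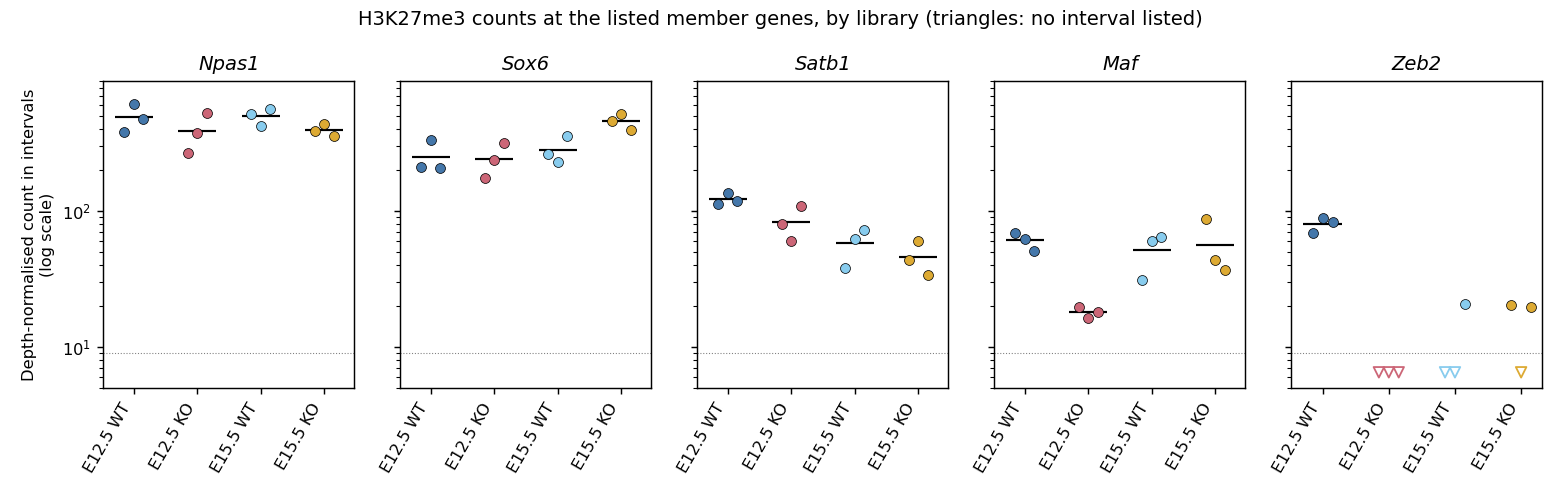
Depth-normalised H3K27me3 counts at 5 genes, 1 point per library on a log scale. Lines are means of groups in which all 3 libraries have an interval, and open triangles mark libraries without one. Maf is at 16.2 to 19.6 in E12.5 KO against 50.8 to 68.7 in E12.5 WT, and Zeb2 has no interval in E12.5 KO.

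Sox6 had an interval over its first start in every WT and KO library, and no genotype difference was called by depth. Normalised counts were 208, 331 and 207 in E12.5 WT and 174, 236 and 315 in E12.5 KO, with overlap between the groups. The means were 249 ± 71.1 and 242 ± 70.8 (SD, n = 3 each), and the log2 change was -0.05 (SE 0.36, edgeR adjusted p = 0.920). The direction depended on the scaling, since TMM factors gave 0.49 (edgeR adjusted p = 0.177). At E15.5 counts were 263, 229 and 355 in WT and 457, 519 and 396 in KO. Every KO library lay above every WT library, as for 11.1% of 2694 genes. The log2 change of 0.69 (SE 0.19) did not pass the test (edgeR adjusted p = 0.237) but did in DESeq2, at 0.67 (DESeq2 adjusted p = 0.0178). At this stage edgeR called 0.408% of genes higher and 0.0742% lower, and the median gene moved by -0.01. The KO libraries were also the deeper ones at E15.5, and the part of depth in this difference was not tested.

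Over both stages the genotype change of Sox6 was 0.32 (SE 0.22, edgeR adjusted p = 0.367), while TMM factors gave 0.61 (edgeR adjusted p = 0.00676) and DESeq2 0.62 (DESeq2 adjusted p = 3.74e-07). The call for Sox6 over both stages thus rested on the scaling. With depth scaling the median gene moved by -0.29 in this test, and 0.923% of 2491 genes were called lower and 0.0401% higher. TMM factors called 53 of these genes higher and 49 lower. From E12.5 to E15.5 in the KO, Sox6 rose by 0.92 on the log2 scale (SE 0.31, edgeR adjusted p = 0.0481), with no overlap between the stages. TMM factors gave 0.94 (edgeR adjusted p = 0.00176). The call held in 5 of 15 alternatives. Without any 1 of 5 libraries (E12.5 KO replicate 1 or 2, or any E15.5 KO replicate) it ended, at adjusted p-values (edgeR) of 0.0878, 0.233, 0.177, 0.255 and 0.135 in that order. It also ended without the filter (edgeR adjusted p = 0.0681), with a mean count of at least 50 (0.0543), with partial intervals (0.0897) and with the stricter score (0.0504). In WT the stage change was 0.18 (SE 0.27, edgeR adjusted p = 0.616) by depth and 0.67 (edgeR adjusted p = 0.0361) by TMM factors.

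The Sox6 domain was made of 2 blocks at the start side of the gene. The block over the first start, 7.2 to 8.6 kb wide where it stood alone, was listed in all 12 libraries. The second block, over the downstream start, was a separate interval of 2.4, 3, 2.4 and 2.6 kb in E12.5 WT replicates 1 and 2 and E15.5 WT replicates 1 and 2. It was joined to the first in E12.5 WT replicate 3, E12.5 KO replicate 3, E15.5 WT replicate 3 and all 3 E15.5 KO libraries, where 1 interval of 10.2 to 11.8 kb spanned both. E12.5 KO replicate 1 listed none there, and E12.5 KO replicate 2 listed 0.6 kb that stopped short of the start. Small intervals deep inside the gene, far from the start, appeared in 4 libraries (E12.5 WT replicates 2 and 3, E12.5 KO replicate 2 and E15.5 KO replicate 1). Covered length was 7.6 to 10.2 kb in E12.5 KO against 9.6 to 15.4 kb in E12.5 WT, and 11.4 to 16.8 kb in E15.5 KO against 9.8 to 11.4 kb in E15.5 WT. The genotype difference in covered share was -0.60 percentage points at E12.5 and 0.50 at E15.5 (exact permutation test, p = 0.2 at each stage).

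Satb1 showed no called genotype difference. Normalised counts were 113, 135 and 117 in E12.5 WT and 79.6, 60.1 and 108 in E12.5 KO. The groups did not overlap, which was common at this stage, as the 33% given above shows, and the log2 change of -0.57 (SE 0.38, edgeR adjusted p = 0.288) equalled the median gene's. TMM factors gave -0.03 and DESeq2 0.03, so no direction could be given. At E15.5 counts were 38.0, 62.3 and 72.8 in WT and 43.7, 60.2 and 33.8 in KO, with a change of -0.38 (SE 0.33, edgeR adjusted p = 0.690). Over both stages the change was -0.48 (edgeR adjusted p = 0.241). The SEs leave room for a moderate loss or for none.

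Satb1 fell with stage in WT. The log2 change from E12.5 to E15.5 was -1.05 (SE 0.29, edgeR adjusted p = 0.0307), and every E15.5 WT library lay below every E12.5 WT library, as for 52% of 2623 genes. With depth scaling 35.8% of genes were called lower and 1.72% higher in this comparison, and the median gene moved by -0.58, so the direction of Satb1 was that of most genes. TMM factors gave -0.57 (edgeR adjusted p = 0.0811) and DESeq2 -0.45 (DESeq2 adjusted p = 0.180). The call also ended without E12.5 WT replicate 2 (edgeR adjusted p = 0.0726) or 3 (0.0893) and without E15.5 WT replicate 1 (0.104) or 2 (0.102). In the KO the stage change was -0.85 (SE 0.40, edgeR adjusted p = 0.213).

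The place of the Satb1 interval differed between libraries. It spanned the annotated gene end in 9 libraries as a single interval of 2.4 to 6.4 kb. E12.5 KO replicate 2 had 2 intervals of 1.6 and 2 kb, with a gap that left the start with 45 CG uncovered. E15.5 KO replicates 1 and 3 listed only 1 kb, which lay inside the gene and covered neither of the first 2 starts. These short intervals held 30 and 45 counts, at 33.6-fold and 26.0-fold over the mean window, against 9.65-fold over 4.8 kb in E15.5 KO replicate 2. The difference in covered share was -1.56 percentage points at E12.5 (exact permutation test, p = 0.3) and -1.30 at E15.5 (exact permutation test, p = 0.4).

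Npas1 had the highest signal per length of the group in 10 of 12 libraries, the exceptions being E15.5 KO replicates 1 and 2. Normalised counts were 379, 610 and 476 in E12.5 WT, 265, 372 and 522 in E12.5 KO, 512, 418 and 558 in E15.5 WT, and 387, 436 and 355 in E15.5 KO. WT and KO overlapped at both stages. The genotype change was -0.34 at both stages, with an SE of 0.35 at E12.5 and 0.14 at E15.5 (edgeR adjusted p = 0.445 and 0.442), and TMM factors turned the E12.5 value to 0.18. The main interval, 5.4 to 11.8 kb, crossed the start in every library. In E12.5 WT replicate 2 a separate interval of 33 counts at the other end of the gene lay over the neighbouring gene Tmem160. The covered share differed by -11.5 percentage points at E12.5 (exact permutation test, p = 0.5) and by -0.10 at E15.5 (exact permutation test, p = 1). The stage change in WT was 0.02 (SE 0.22, edgeR adjusted p = 0.948) by depth and 0.51 (edgeR adjusted p = 0.0336) by TMM factors.

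Mef2c (chr13:83504017-83667079) and St18 (chr1:6487231-6860940) had no interval in any of the 12 libraries. St18 encodes a zinc finger factor of the Myt1 family found in MGE-derived pallidal neurons. No value can be given for either gene beyond its absence from the lists, and no genotype or stage comparison could be made. Both share this state with 61.2% of all autosomal genes.

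**Figure D4:**
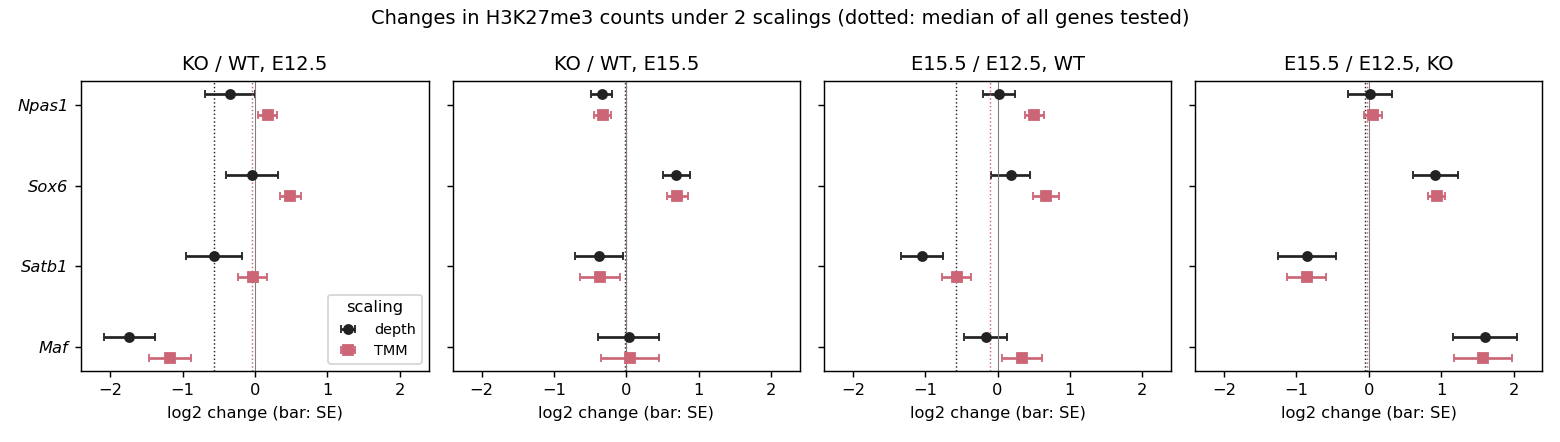
Log2 changes in H3K27me3 counts at the 4 genes listed in all 12 libraries, with bars for the SE. Panels give KO over WT at each stage and E15.5 over E12.5 in each genotype, for depth scaling (circles) and TMM factors (squares), and dotted lines are the medians of all genes tested. In the E12.5 comparison of genotypes Maf is at -1.74 by depth and -1.18 by TMM factors, below the medians of -0.57 and -0.05.

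Relatives of the 7 genes gave a similar mix of listed and unlisted genes. Of 15 paralogs, 7 were listed in all 12 libraries, 5 in some and 3 (Zeb1, Mef2a and Myt1) in none. These 3 are relatives of Zeb2, Mef2c and St18. Other relatives of Mef2c and St18 were listed, Mef2b in 10 libraries, Mef2d in 11 and Myt1l in 12. None of the 8 paralogs tested in each stage passed the genotype test, and their medians were -0.28 (E12.5) and -0.01 (E15.5). With depth scaling the only paralog called was Npas4, an activity-induced relative of Npas1. It fell from E12.5 to E15.5, with log2 changes of -2.06 in WT (edgeR adjusted p = 0.00716) and -1.38 in KO (edgeR adjusted p = 0.00928), and TMM factors gave -1.59 and -1.38. With TMM factors Myt1l, a relative of St18, was also called, higher in the KO over both stages at 0.86 (edgeR adjusted p = 0.0214), beside 53 of all 2491 genes. By depth its change was 0.56 (edgeR adjusted p = 0.230).

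Of 20 other autosomal genes of the MGE and interneuron programme, 14 were in all libraries, 5 in some and 1, Etv1, in none. With depth scaling none of 17 tested at E12.5 or 14 at E15.5 was called between genotypes, and their medians were 0.17 and 0.24. TMM factors called Nkx2-1 and Gsx2 higher in the E12.5 KO (Gsx2 1.01, edgeR adjusted p = 0.0204), beside 9 of all 3139 genes. Over both stages they called Gad2, Lhx6, Dlx2, Sp9, Slc32a1 and Nkx2-1 higher in the KO, beside 53 of all 2491 genes. The changes ran from 0.46 at Slc32a1 to 1.22 at Nkx2-1, and depth scaling called none of these genes. Nkx2-1, which specifies the MGE, had a log2 change of 1.21 in the E12.5 KO (SE 0.33, edgeR adjusted p = 0.0506), and with TMM factors 1.73 (edgeR adjusted p = 0.0193). Lhx6, which acts just upstream of Sox6 and Satb1, had changes of 0.12 at E12.5 (edgeR adjusted p = 0.712) and 0.52 at E15.5 (edgeR adjusted p = 0.223).

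From E12.5 to E15.5 in WT, 10 of the 14 genes tested were called lower with depth scaling and none higher, beside 35.8% of all genes called lower, with log2 changes of -0.69 (Lhx6) to -1.77 (Gsx2) by depth. They were the homeobox genes Dlx1, Dlx2, Dlx5, Dlx6 and Gsx2, the factor Lhx6, the zinc finger gene Sp9, and Gad1, Gad2 and Slc32a1, which make and load GABA. Dlx5 and Dlx6 share their intervals. Dlx1 and Dlx2 had nearly equal stage changes in KO (-1.34 and -1.33 by depth) but not in WT (-0.92 and -1.48). Intervals shared by Dlx1 and Dlx2 were not counted, so the genes called are not all separate domains. In KO, 7 of 17 were called lower by depth, beside 5.5% of all genes, and with TMM factors Sp9 and Slc32a1 were called lower too (edgeR adjusted p = 0.0111 and 0.0489). Of all 3002 genes tested in KO, TMM factors called 236 lower and 269 higher. No programme gene was called in the test of whether the stage change differed between genotypes, by depth or by TMM factors. By TMM factors all 10 kept their sign in WT but only Gad1, Gad2 and Gsx2 passed, beside 449 of all 2623 genes called lower and 271 higher. The change was -0.76 at Gad1 and -0.24 at Lhx6 (edgeR adjusted p = 0.016 and 0.329). TMM factors also called Nkx2-1 higher in WT, at 1.48 (edgeR adjusted p = 0.0249), and Lhx8, another MGE regulator, higher in WT at 0.67 and in KO at 0.62 (edgeR adjusted p = 0.00929 and 0.0232). By depth these were 0.96, 0.20 and 0.60 and were not called. Maf and Sox6 rose with stage in the KO by depth, and neither passed the test of whether the stage change differed between genotypes (Maf as given above, Sox6 0.74, SE 0.39, edgeR adjusted p = 0.219).

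Genes that mark other cells of the ventral and dorsal forebrain were read only as lists of the mark. All 5 pallial genes, 4 of 5 striatal, 3 of 3 oligodendrocyte and 1 of 4 microglial and vascular genes were listed in all libraries. At E12.5, 2 of 4 striatal genes tested, Meis2 and Ebf1, were called lower in the KO, beside 4.05% of all genes. Their log2 changes were -1.49 and -0.96 (edgeR adjusted p = 0.0138 and 0.0317). With TMM factors neither passed (edgeR adjusted p = 0.144 and 0.350). Over both stages these genes and the pallial gene Emx2 (-0.70, edgeR adjusted p = 0.0222) were called lower by depth, beside 0.923% of all genes. With TMM factors Meis2, Ebf1 and Emx2 missed the threshold over both stages (edgeR adjusted p = 0.0537, 0.0662 and 0.172). The part of cell composition in the Maf and Zeb2 values was not tested.

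The genes with the most similar counts over the 12 libraries, by Pearson correlation of log2 normalised counts among 2490 others, were for Sox6 A930009A15Rik (0.918), Asic4 (0.898) and Rbfox1 (0.887). For Satb1 they were Pfkfb3 (0.960) and Col4a1 (0.952). For Maf they were Ptpre (0.904), Irak3 (0.900) and Ism1 (0.898), and for Npas1 Plin1 (0.928), Cnn2 (0.916) and Fam78a (0.916). These are descriptions over libraries that share groups and differ in depth, and no gene of the 7 was among the most similar of another.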

How the data were processed

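H3K27me3 was measured by bulk CUT&Tag in 12 WT and KO libraries of mouse MGE, with groups taken from the labelled genotype and stage. Per the submitters' processing notes, cutadapt, Bowtie2, SAMtools, Picard, deepTools and SICER were used with GRCm38/mm10, and their settings are not given in the sources used here. The authors deposited 1 interval list per library, so replicates were not pooled. Its count per interval is a whole number that is not normalised, and its score was used only to recover depth and for a stricter filter. Score is the deposited measure from which the mean count per 200 bp window (the depth) was recovered. In single-window intervals it equals the negative natural log of a Poisson probability, with a largest misfit of 0.00407. That depth is proportional to total reads is an assumption.

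Counts of intervals overlapping a gene body or 2.5 kb beside it were summed, and whole intervals were counted. Genes with an interval in every library of a test were tested with edgeR 4.0.16 (R 4.3.3, quasi-likelihood test, library sizes proportional to depth, Benjamini-Hochberg adjustment over all autosomal protein-coding genes tested, threshold 0.05). Stages were tested apart, together with stage as a term, and for their difference. Covered shares were compared by exact two-sided permutation over 20 assignments per stage (smallest p 0.1) or 400 within stages (smallest p 0.005), with Python 3.11.15 and scipy 1.17.1. Alternatives were TMM factors, DESeq2 1.42.0, no filter or a mean count of at least 50, other flanks (0 and 10 kb), partial intervals, a stricter score, a replicate block, and 1 library left out at a time. The count test was run on counts simulated from its own model. Interval calling was not simulated, so that run cannot show how counts over listed intervals behave. The members, gene lists and tests were chosen with earlier results of these data known. All members are named, paralogs and programme genes where they passed a test (Nkx2-1 and Lhx6 always), and up to 3 most similar genes per member. Some items are not reported here. Meis2, Ebf1, Emx2, Etv1 and the paralogs not listed in every library were named after their values were seen. Sequences are from RefSeq (GRCm38.p6). The labels give biological replicates, but pooled embryos were allowed. Lists hold no unlisted signal, so depth sets what they can show, and p-values measure the spread between these libraries. No 2 libraries were identical.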

Additional observations from a re-analysis of the deposited data

Results flagged for a closer look

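The genotype difference in the covered share of Sox6 differed between the stages by 1.10 percentage points, from -0.60 at E12.5 to 0.50 at E15.5 (exact permutation test within stages, p = 0.025). Over 8010 genes its adjusted p was 0.722, and 5.53% of those genes had an unadjusted p below 0.05, with 0 after adjustment. Covered length in E12.5 KO was 7.6, 9.4 and 10.2 kb and in E15.5 KO 16.8, 11.8 and 11.4 kb. The 16.8 kb of E15.5 KO replicate 1 included weak intervals of 1.4 and 4.2 kb deep inside the gene, beside 11.2 kb at the start side. Deep intervals also added 3 and 1.4 kb in E12.5 WT replicate 2, 1.8 kb in E12.5 WT replicate 3 and 0.2 kb in E12.5 KO replicate 2. The difference without these deep intervals was not tested. With the stricter score the difference was 0.46 (exact permutation test, p = 0.265). Leaving out E12.5 WT replicate 2, E12.5 KO replicate 1 or 2, or E15.5 WT replicate 1 or 2 gave exact p-values of 0.05 to 0.07. E15.5 KO libraries were deeper than E15.5 WT libraries, and the part of depth in this difference was not tested.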

How the results depend on the processing

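Where a number below differs between settings, the cause was not tested, except that some settings test other genes or fewer libraries. At E12.5, 127 genes were called, against 47 with TMM factors, 23 without the filter, 269 with 10 kb flanks, 229 with partial intervals and 305 with the replicate block. Leaving out 1 library gave 11 (E12.5 KO replicate 1) to 904 (E12.5 KO replicate 3) calls. At E15.5, 13 genes were called, against 72 in DESeq2 and 0 with the block (162 at an unadjusted edgeR p below 0.05, 72 by DESeq2 without it), and 0 (E15.5 KO replicate 1 or 2) to 13 with 1 library left out. Over both stages, 24 became 102 with TMM factors, 219 in DESeq2, 4 without the filter, 48 with partial intervals, 5 with the block and 0 (E12.5 WT replicate 3, E12.5 KO replicate 2 or 3) to 40 (E15.5 WT replicate 1) with 1 library left out. For the difference between stages, 14 became 6 with TMM factors, 43 in DESeq2, 42 with 10 kb flanks, 29 with partial intervals, 52 with the block and 0 (E12.5 WT replicate 3, E12.5 KO replicate 1 or 2, E15.5 WT replicate 1, E15.5 KO replicate 1) to 959 (E12.5 KO replicate 3) with 1 library left out. From E12.5 to E15.5 in WT, 985 became 163 without the filter and 85 (E15.5 WT replicate 2) to 1445 with 1 library left out. In KO, 289 became 505 with TMM factors, 563 in DESeq2 and 174 (E15.5 KO replicate 3) to 267 with 1 library left out. TMM factors and DESeq2 moved the split of higher and lower calls: 9 higher and 38 lower, and 73 and 98, at E12.5, 53 and 49 over both stages by TMM factors, and 271 and 449, and 373 and 382, in WT between stages. None of the 5 covered shares had p below 0.05 over both stages, and 1 had without E15.5 WT replicate 1 or without E15.5 KO replicate 2, so the count ran from 0 to 1.

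Maf at E12.5 kept its direction under every alternative (log2 change -1.99 to -1.12) and its call in 11 of 14. It missed the threshold with TMM factors, without the filter (edgeR adjusted p = 0.354) and when E12.5 KO replicate 1 was left out, and it had no value under the stricter score because it left the genes tested. DESeq2 gave an adjusted p of 0.0498. The difference of Maf between stages passed with 10 kb flanks (2.18, edgeR adjusted p = 0.0421) and at 1.77 when E12.5 KO replicate 3 was left out (edgeR adjusted p = 0.0352). Signs turned at the following values. At E12.5 these were Npas1 (0.18 with TMM factors, 0.24 in DESeq2), Sox6 (0.49 and 0.55, 0.016 with the stricter score, and -0.29 to 0.22 without 1 library) and Satb1 (0.028 in DESeq2). At E15.5 Maf turned to -0.030 with the block and ran from -0.42 to 0.27 without 1 library. Between stages in WT, Maf was 0.34 with TMM factors, 0.42 in DESeq2, 0.0035 with partial intervals and -0.34 to 0.055 without 1 library, Npas1 was -0.0019 with the stricter score and -0.13 to 0.21 without 1 library, and Sox6 ran from -0.026 to 0.45 without 1 library. In covered share at E15.5, Maf was -1.83 percentage points without flanks and -4.23 to 11.9 without 1 library, and Npas1 was 0.0178 with 10 kb flanks, 2.45 with the stricter score and -4.57 to 4.24 without 1 library. Same-numbered WT and KO libraries correlated at 0.227, 0.0199 and 0.168 at E12.5 and at -0.223, -0.202 and -0.352 at E15.5, in deviations from group means over 2491 genes. Not every library correlated best with its own number, so the numbers give no pairing, and with the replicate block Sox6 between stages in KO missed the threshold (edgeR adjusted p = 0.123). Low counts limit what can be shown at E15.5, where Maf had 9 to 60 counts.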
